A study of Homo sapiens with 42 samples.

Results

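The m6A peaks of 6 receptor tyrosine kinase genes were followed across 7 peak lists from HepG2, a human hepatocellular carcinoma cell line. The genes were EGFR (ENSG00000146648), ERBB2 (ENSG00000141736), ERBB3 (ENSG00000065361), MET (ENSG00000105976), FGFR3 (ENSG00000068078) and FGFR4 (ENSG00000160867). Peaks were taken by gene identifier alone, without regard to their values, which gave 128 of the 211410 peaks in the 7 lists and 6 of 17005 genes. m6A is a methyl mark on adenosines of messenger RNA, and m6A-seq sequences RNA fragments pulled down with an m6A antibody (IP) beside unselected RNA (input).

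Each list belongs to HepG2 cells that stably carried a lentiviral short hairpin RNA (shRNA) under puromycin selection. The knockdown lists were METTL3, METTL14, WTAP and SETD2 #1, set against a non-specific control shRNA, and SETD2 #2, set against a non-specific control of its own, called the second control here. METTL3 holds the active site of the enzyme that writes m6A. METTL14 (also spelled METLT14 in the labels) helps METTL3 bind RNA, and WTAP brings both to their targets. SETD2 places a methyl mark on histone H3 along transcribed genes. Each condition had 3 IP and 3 input libraries, which the authors joined into a single list. No value below therefore has a replicate error, and no test between conditions was possible. Values of the second control are given beside those of the control, and they belong to separate sets of libraries. The labels name an antibody lot for the IPs of the first set (METTL3, METTL14, WTAP, SETD2 #1 and control) and the same antibody without a lot for the SETD2 #2 set. The labels do not say whether replicates came from separate cultures, and the files give no read depth. The files pair gene identifiers with no symbols, so the knockdown of each targeted gene, hepatocyte markers and other genes of these receptors' pathways were not analysed here.

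Receptor tyrosine kinases sit in the cell membrane, pair when a ligand binds, and phosphorylate each other and adaptor proteins that feed the RAS-MAP kinase and PI3 kinase pathways. EGFR, the receptor of epidermal growth factor, ERBB2 and ERBB3 form 1 family whose members pair with one another. MET is the receptor of hepatocyte growth factor and acts in liver regeneration. FGFR4 is the main fibroblast growth factor receptor of hepatocytes, where it receives FGF19 from the gut and restrains bile acid synthesis. m6A is known to gather near stop codons and in long internal exons, and it can shorten the life of the RNA that carries it.

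All 6 genes had at least 1 peak in every list. The METTL3 list held 19 peaks of these genes, METTL14 16, WTAP 15 and SETD2 #1 18, against 20 in the control. The SETD2 #2 list held 19, against 21 in the second control. All lay on the plus strand. Peaks of a gene that shared at least 1 base in any list were joined into a region, and regions were numbered from the 5' end within each gene. This gave 25 regions, of which 11 were called in all 7 lists, 10 in 2 to 6 lists and 4 in 1 list. Coordinates are those of the files, in build hg19. Exons, coding sequence and UTRs were not assigned, because no annotation of that build was used here.

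**Figure D1:**
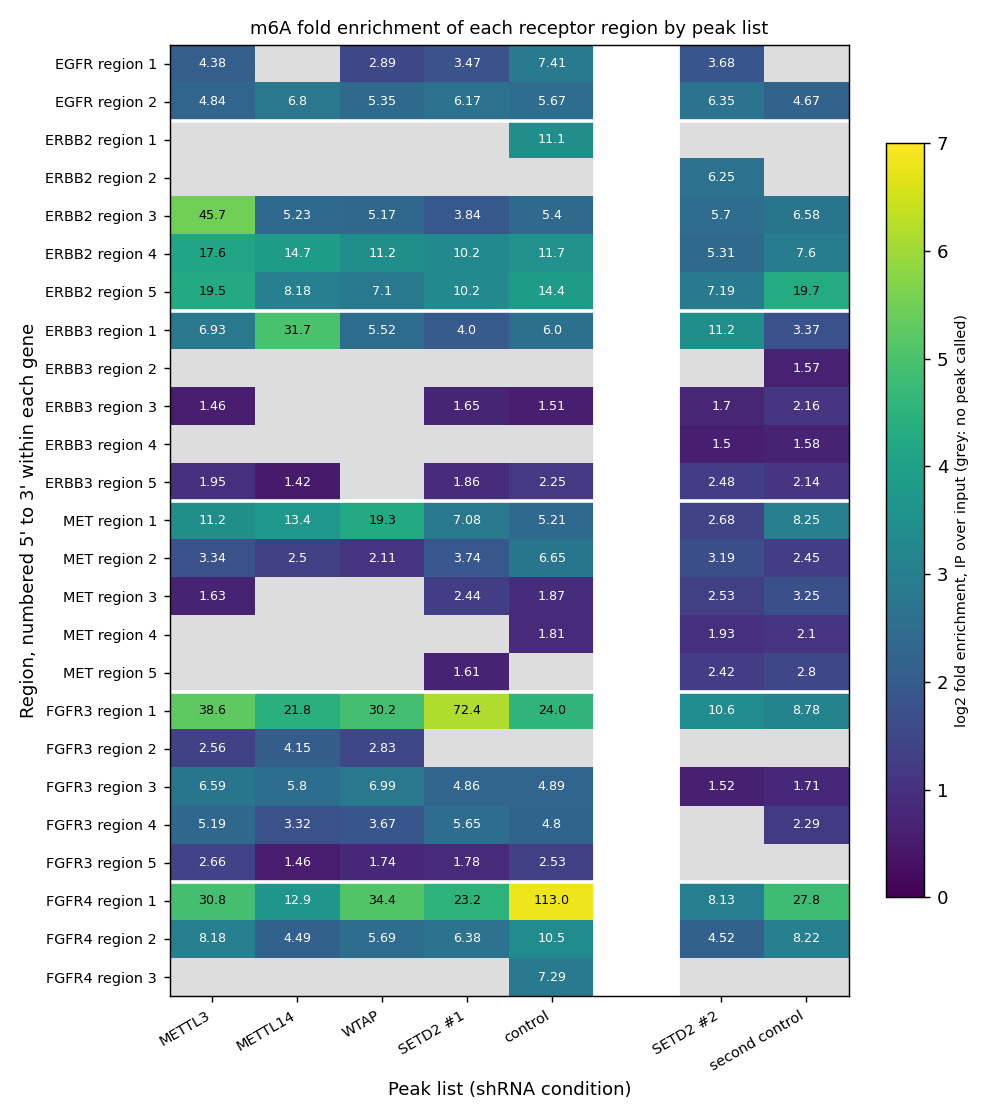
Fold enrichment of IP over input, as the authors' peak caller gave it, for each of the 25 regions (rows) in each list (columns); colour is its log2 and grey marks a list without a peak. Where a list held several peaks in a region the highest is shown. FGFR4 region 1 is brightest in the control (113-fold), and FGFR3 is sparse in the SETD2 #2 and second control lists.

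FGFR4 had the highest fold enrichment of the 6 genes in the WTAP, control and second control lists, at its 5'-most region. In the METTL3, METTL14, SETD2 #1 and SETD2 #2 lists a region of ERBB2, ERBB3 or FGFR3 was higher. The FGFR4 peak had a lower fold enrichment in every knockdown list than in the control of that list. This region lay on chromosome 5 from 176513887 to 176515281. Its fold enrichment was 30.8 in the METTL3 list, 12.9 in METTL14, 34.4 in WTAP and 23.2 in SETD2 #1, against 113 in the control. It was 8.13 in the SETD2 #2 list, against 27.8 in the second control. On the log2 scale these are ratios of -1.88 (METTL3), -3.13 (METTL14), -1.72 (WTAP), -2.28 (SETD2 #1) and -1.77 (SETD2 #2). Of all peaks of the control matched to a METTL14 peak that shared the most bases with them, 0.677% had a ratio below that for METTL14, and the shares for the other 4 knockdowns lay between 2.7% and 5.08%. The log10 of the peak caller's p-value for IP over input lay between -325 in SETD2 #2 and -1890 in the control, and FGFR4 region 1 had the lowest p of the 25 regions in the control. The second control was itself lower than the control here, by a log2 ratio of -2.02. Peaks as high as this were generally lower in the other lists. Among matched control peaks of 100-fold or more, 90% had lower fold enrichment in METTL3 (of 359), and the shares were 96.1% with METTL14, 87.5% with WTAP and 98.3% with SETD2 #1, and 100% with the second control (of 354). Among matched second control peaks of 20-fold or more, 97.5% (1400 of 1436) were lower in SETD2 #2. The median log2 ratios of these high peaks were -1.32 (METTL3), -2.09 (METTL14), -1.30 (WTAP), -2.41 (SETD2 #1), -1.64 (SETD2 #2) and -2.70 (second control). Against them, FGFR4 region 1 was lower in METTL3, METTL14, WTAP and SETD2 #2, and higher in SETD2 #1 and the second control.

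The next FGFR4 region, from 176515371 to 176517474, was also lower in every knockdown list, by less. Its fold enrichment was 8.18 in METTL3 and 4.49 in METTL14, 5.69 in WTAP and 6.38 in SETD2 #1, against 10.5 in the control, and 4.52 in SETD2 #2, against 8.22 in the second control. The log2 ratios ran between -1.23 for METTL14 and -0.36 for METTL3, and the second control had -0.35 against the control. Of all matched peaks, between 13.7% (METTL14) and 34.2% (METTL3) had a ratio below that of this region. FGFR4 was the only one of the 6 genes in which every matched peak was lower in all 5 knockdown comparisons, also when ratios were divided by the median of all peaks matched 1 to 1 (log2 ratios of -2.91 to -0.27). So divided, region 2 was higher in the second control than in the control, at 0.17. FGFR4 had 2 matched regions, and METTL3, METTL14, WTAP and SETD2 #1 shared the same control list. How many of all genes were lower throughout was not counted. The 3'-most FGFR4 peak, from 176521930 to 176521990, was called in the control alone, at 7.29-fold and a log10 p of -2.95.

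FGFR3, a fibroblast growth factor receptor best known for restraining bone growth, was not lower throughout. Its 5'-most region spanned 7 blocks on chromosome 4 from 1795034 to 1803576. The highest fold enrichment there was 38.6 in METTL3 and 21.8 in METTL14, 30.2 in WTAP and 72.4 in SETD2 #1, against 24 in the control. It was 10.6 in SETD2 #2, against 8.78 in the second control, over 120 and 180 bases and with log10 p of -2.7 and -3.87. The SETD2 #1 ratio, 1.59 on the log2 scale over the same 1015 bases, was above that of 98.5% of all matched peaks. The region after it, from 1806123 to 1806332, had a peak of 210 bases in METTL3 (2.56-fold), METTL14 (4.15-fold) and WTAP (2.83-fold), with log10 p between -34.6 and -21.4, and none in the other 4 lists. It was the only one of the 25 regions called in all 3 of these lists and not in the control. The share of such regions over all genes was not computed. Fold enrichment at region 3, from 1806481 to 1807624, was 6.59 in METTL3 and 5.8 in METTL14, 6.99 in WTAP and 4.86 in SETD2 #1, against 4.89 in the control, all over the same 597 bases. At region 4, from 1808658 to 1809197, it was 5.19, 3.32, 3.67 and 5.65 in METTL3, METTL14, WTAP and SETD2 #1, against 4.8 in the control. Region 5, from 1809257 to 1809525, had 2.66, 1.46, 1.74 and 1.78 in those lists, against 2.53 in the control.

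The lists of the SETD2 #2 set held much less of FGFR3. Its peak blocks covered 2331 bases in METTL3 and 2182 in METTL14, 2331 in WTAP and 2151 in SETD2 #1, against 2240 in the control. They covered 270 bases in SETD2 #2, against 690 in the second control. The ratio of second control to control was 0.308, and 4.58% of the 12616 genes with a peak in both lists had a smaller one. The ratio of SETD2 #2 to second control was 0.391, and 3.34% of 12103 genes had a smaller one. Region 4 had 2.29-fold enrichment in the second control, with a log10 p of -51.7, and no peak in SETD2 #2. Of the second control peaks with at least this support, 0.167% were absent from SETD2 #2. Region 5 was absent from both lists. Its control peak had a log10 p of -66.7, and among control peaks with at least that support the second control lacked 1.12%. Both shares take peaks by p alone. Fold enrichment was 2.29 at region 4 in the second control and 2.53 at region 5 in the control. The medians over all peaks of these lists were higher, at 4.33 and 6.79. Region 3 covered 150 bases at 1.52-fold in SETD2 #2, against 210 bases at 1.71-fold in the second control.

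**Figure D2:**
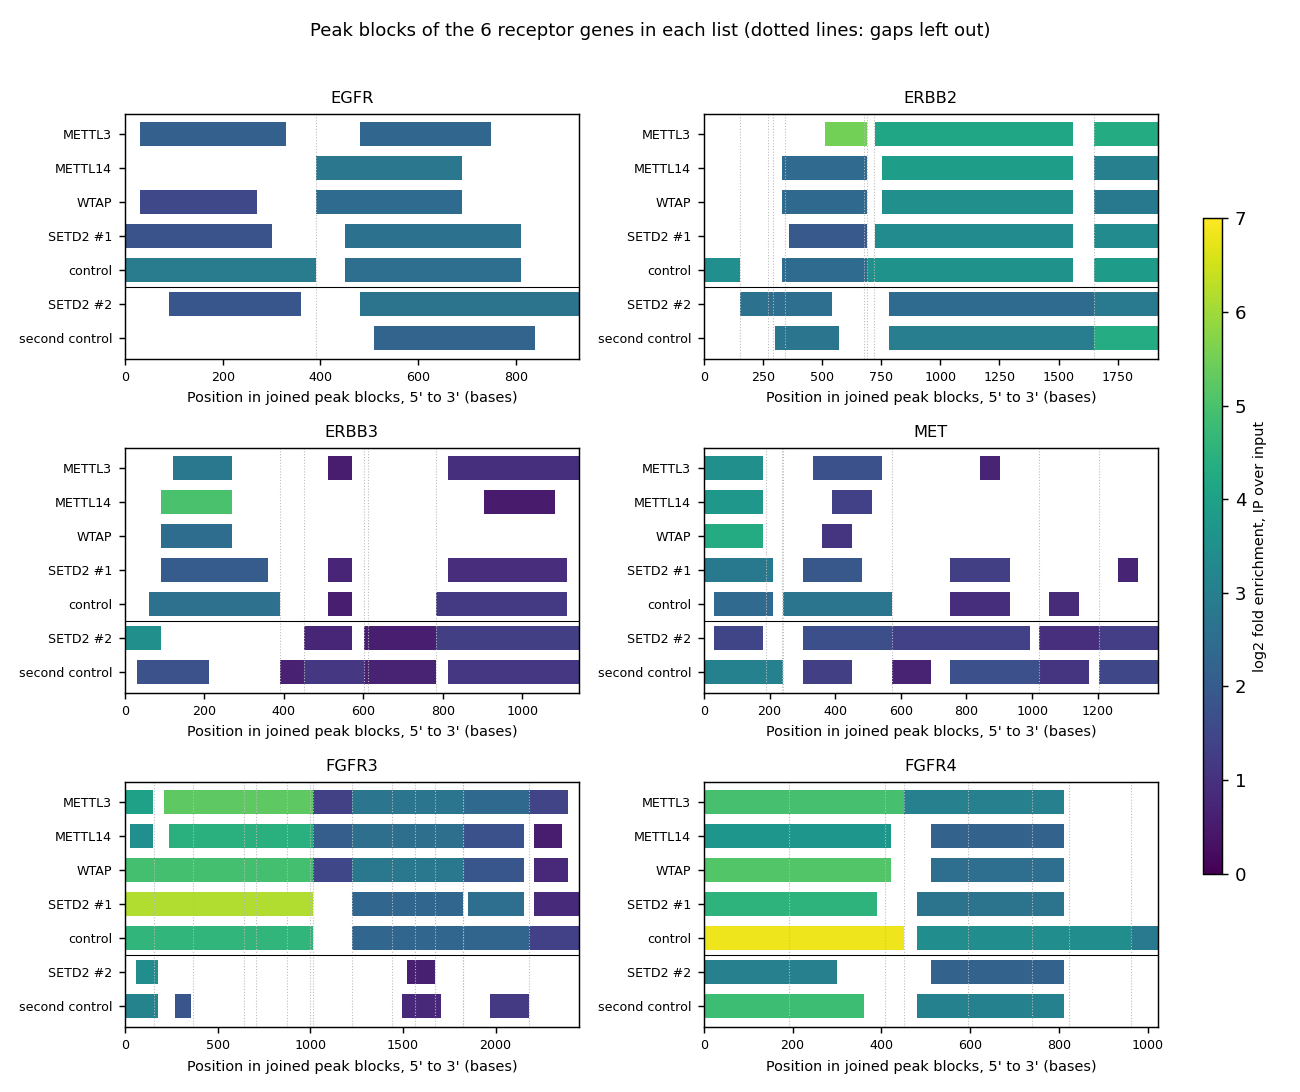
Peak blocks of each gene in each list, drawn along the joined blocks of all lists from 5' to 3' in bases, with the sequence between blocks left out at the dotted lines, so that separate peaks can touch. Colour is log2 fold enrichment. In MET and ERBB3 the METTL14 and WTAP rows are shorter than the control row, and in FGFR3 the SETD2 #2 and second control rows are sparse.

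MET had its 5'-most region at higher fold enrichment in the METTL3, METTL14 and WTAP lists than in the control, and the region after it at lower. The 5'-most region began on chromosome 7 at 116312444. Its fold enrichment was 11.2 in METTL3 and 13.4 in METTL14, 19.3 in WTAP and 7.08 in SETD2 #1, against 5.21 in the control. It was 2.68 in SETD2 #2, against 8.25 in the second control. The log2 ratio was 1.10 in METTL3, above 89.8% of all matched peaks, 1.36 in METTL14, above 92.5%, and 1.89 in WTAP, above 96.1%. The log10 p was -6.14 in METTL3, -5.95 in METTL14 and -10.4 in WTAP, against -10.2 in the control. Each of these peaks covered 181 bases, in METTL3, METTL14 and WTAP as 1 block that ended at 116312624. The control peak had 2 blocks and reached 116335826, so the values do not describe the same bases. The second control also exceeded the control here, by 0.66, above 90.1% of all matched peaks. Divided by the median of peaks matched 1 to 1, the log2 ratios of METTL3 and of the second control were both 1.19. Region 2, from 116339306 to 116339636, had 3.34-fold enrichment in METTL3 and 2.5 in METTL14, 2.11 in WTAP and 3.74 in SETD2 #1, against 6.65 in the control, and 3.19 in SETD2 #2, against 2.45 in the second control. The control peak covered 331 bases there, and the METTL3, METTL14, WTAP and SETD2 #1 peaks 211, 121, 91 and 181. The second control, with 151 bases and a log2 ratio of -1.44 against the control, lay within the range of these 4 lists.

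The 3 MET regions that followed had no peak in METTL14 or WTAP. Region 3, from 116339756 to 116340205, was called at 1.63-fold in METTL3 and 2.44-fold in SETD2 #1, against 1.87-fold in the control, and at 2.53-fold in SETD2 #2, against peaks of 1.58-fold and 3.25-fold in the second control. Region 4, from 116437751 to 116437931, was absent from METTL3, METTL14, WTAP and SETD2 #1, and was 1.81-fold in the control. It was 1.93-fold in SETD2 #2, against 2.1-fold in the second control. It was the only one of the 16 regions called in both controls that was absent from METTL3, METTL14 and WTAP alike. How often this occurs over all genes was not computed. Region 5, from 116438081 to 116438260, was called in SETD2 #1 (1.61-fold), SETD2 #2 (2.42-fold) and the second control (2.8-fold). The control peaks of regions 3 and 4 were weakly supported, with log10 p of -4.63 and -4.3. Over the gene, peak blocks covered 453 bases in METTL3 and 302 in METTL14, 272 in WTAP and 633 in SETD2 #1, against 784 in the control, and 1203 in SETD2 #2, against 1114 in the second control.

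ERBB3, a neuregulin receptor with little kinase activity of its own, also had fewer covered bases in METTL14 and WTAP than in the control. Its blocks covered 541 bases in METTL3 and 360 in METTL14, 180 in WTAP and 631 in SETD2 #1, against 721 in the control, and 753 in SETD2 #2, against 904 in the second control. For the WTAP ratio of 0.25, 3.33% of 12146 genes had a smaller one, and for the METTL14 ratio of 0.499, 18.2% of 11950. The best supported ERBB3 control peak was its 3'-most, region 5 on chromosome 12 from 56495432 to 56495791. Its fold enrichment was 1.95 in METTL3, 1.42 in METTL14 and 1.86 in SETD2 #1, against 2.25 in the control, and no peak was called in WTAP. With a log10 p of -41.9 in the control, the peak had a support at which 1.14% of control peaks were absent from WTAP. That share takes peaks by p alone, and the median fold enrichment over all control peaks was higher, at 6.79. Region 5 had 2.48-fold enrichment in SETD2 #2, against 2.14 in the second control. The 5'-most region, from 56473761 to 56474150, was called in every list, at 6.93-fold in METTL3 and 31.7-fold in METTL14, 5.52-fold in WTAP and 4-fold in SETD2 #1, against 6-fold in the control, and at 11.2-fold in SETD2 #2, against 3.37-fold in the second control. The METTL14 peak covered 180 bases and the control peak 330, so the values do not describe the same bases. The METTL14 log2 ratio of 2.40 was above that of 98.3% of all matched peaks. The SETD2 #2 peak covered 91 bases with a log10 p of -2.89, and the second control peak 181 bases with -4.67. Regions 2, 3 and 4 were called in 1, 5 and 2 lists, at 1.46-fold to 2.16-fold.

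EGFR had a pair of neighbouring regions on chromosome 7 that behaved differently. Region 1, from 55273103 to 55273492, had 4.38-fold enrichment in METTL3, 2.89 in WTAP and 3.47 in SETD2 #1, against 7.41 in the control, and no peak in METTL14. It was 3.68-fold in SETD2 #2, where the second control had no peak. Of the control peaks with at least its log10 p of -22.8, 3.32% were absent from METTL14 and 3.95% from the second control. Region 2, from 55273762 to 55274300, lay between 4.67-fold and 6.8-fold in all 7 lists: 4.84 in METTL3 and 6.8 in METTL14, 5.35 in WTAP and 6.17 in SETD2 #1, against 5.67 in the control, and 6.35 in SETD2 #2, against 4.67 in the second control. Its log2 ratios in the 5 knockdown comparisons ran between -0.23 and 0.44, and it was the EGFR region found in every list.

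ERBB2, the partner of the family with no known ligand, had its 3 main regions in every list. Region 4, on chromosome 17 from 37883772 to 37884870, covered 809 to 869 bases with a log10 p between -826 and -194. Its fold enrichment was 17.6 in METTL3 and 14.7 in METTL14, 11.2 in WTAP and 10.2 in SETD2 #1, against 11.7 in the control, and 5.31 in SETD2 #2, against 7.6 in the second control. Region 3, from 37851416 to 37859460, had 5.23-fold enrichment in METTL14, 5.17 in WTAP and 3.84 in SETD2 #1, against 5.4 in the control, and 5.7 in SETD2 #2, against 6.58 in the second control. Its METTL3 value of 45.7 was the highest ratio of any matched peak of the 6 genes (log2 3.08, above 99.4% of all matched peaks), over 181 bases against 360 in the control. Region 1 was called in the control alone and region 2 in SETD2 #2 alone, with log10 p of -2.65 and -3.75.

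Region 5 of ERBB2, from 37886410 to 37886679, had the same 270 bases in all 7 lists, and a peak of the opposite strand (ENSG00000141741.11) shared 265 of them in each. Its fold enrichment was 19.5 in METTL3 and 8.18 in METTL14, 7.1 in WTAP and 10.2 in SETD2 #1, against 14.4 in the control, and 7.19 in SETD2 #2, against 19.7 in the second control. The opposite peak had 26.9, 45.8, 39.2 and 9.64 in METTL3, METTL14, WTAP and SETD2 #1, against 17.6 in the control, and 11.2 in SETD2 #2, against 32.3 in the second control. The log10 p-values of ERBB2 and the opposite peak were -414 and -417 in the second control and -81.5 and -82.2 in the control. They lay furthest apart in WTAP, at -39 and -50.1, and in METTL14, at -46.7 and -54.9. Whether the authors counted reads by strand is not given in the sources used here, so signal of ERBB2 and of the opposite gene cannot be told apart in this region. In the control list, 11.2% of all peaks overlapped a peak of the opposite strand, and region 1 of ERBB2 was the other such peak of the 6 genes.

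Taking the genes as a group, 3 of 20 control peaks (15%, exact Clopper-Pearson 95% interval 3.21 to 37.9%) had no overlapping peak in METTL3, where 22.8% of all control peaks had none. The counts were 6 of 20 in METTL14 (30%, 11.9 to 54.3%), where the share over all peaks was 29.8%, and 6 of 20 in WTAP (30%), where it was 28.8%. They were 3 of 20 in SETD2 #1 (15%), where it was 27%, and 4 of 20 in the second control (20%, 5.73 to 43.7%), where it was 28.6%. From SETD2 #2, 3 of 21 second control peaks were absent (14.3%, 3.05 to 36.3%), where the share over all peaks was 20.5%. Each share over all peaks lay inside the interval of the receptor peaks. The intervals treat peaks of the same gene as independent, which they may not be, so this is not a test of a difference. In the other direction, 1 peak each of METTL3, METTL14, WTAP and SETD2 #1 was absent from the control, where the shares over all peaks were 10.6%, 12.7%, 13.5% and 8.07%. These were FGFR3 region 2 in the first 3 lists and MET region 5 in SETD2 #1. SETD2 #2 had 2 peaks absent from the second control, EGFR region 1 and ERBB2 region 2, where the share over all peaks was 14.5%, and the second control had 4 absent from the control, where it was 15.6%.

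Most control peaks absent from METTL14 and WTAP were weakly supported, a split by p chosen after the values were seen. Of the 5 control peaks with a log10 p above -5 (ERBB2 region 1, FGFR4 region 3, ERBB3 region 3 and MET regions 3 and 4), METTL3 lacked 3, METTL14 5, WTAP 5, SETD2 #1 3 and the second control 2. The shares over all control peaks this weak were 58.4%, 63.3%, 61.7%, 66% and 63.2%. Of the 15 control peaks with better support, METTL3 lacked 0 and SETD2 #1 0, which allows a share of up to 20% in each (0 of 15), and the shares over all such peaks were 9.28% and 12.2%. METTL14 lacked 1 (EGFR region 1), where 17.2% of all such peaks were absent, and WTAP 1 (ERBB3 region 5), where 16.3% were. The second control lacked 2 (EGFR region 1 and FGFR3 region 5), where 15.4% were. SETD2 #2 lacked 2 of 5 weak second control peaks, where 51.2% of all were absent, and 1 of 16 better supported ones (FGFR3 region 4), where 8.27% were.

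Over matched peaks, the median log2 ratio of fold enrichment to the control was 0.07 over 17 METTL3 peaks, -0.34 over 14 METTL14 peaks, -0.25 over 14 WTAP peaks and -0.27 over 17 SETD2 #1 peaks. To the second control it was -0.19 over 18 SETD2 #2 peaks. Over all matched peaks the medians were -0.08, -0.22, -0.26, -0.36 and -0.11. Divided by the median of peaks matched 1 to 1, the receptor medians became 0.16 (METTL3), -0.11 (METTL14), 0.02 (WTAP), 0.07 (SETD2 #1) and -0.08 (SETD2 #2), so the sign turned in WTAP and SETD2 #1. The ratio was below 0 for 8 of 17 peaks in METTL3, 9 of 14 in METTL14, 11 of 14 in WTAP, 11 of 17 in SETD2 #1 and 12 of 18 in SETD2 #2. The background shares were 54.1%, 59.3%, 61.5%, 70.4% and 57.9%. Matched peaks were narrower for 10 of 17, 10 of 14, 9 of 14, 10 of 17 and 7 of 18, where the shares over all matched peaks were 56.2%, 62.2%, 61.7%, 65.2% and 43.3%. The second control against the control gave a median of -0.32 over 16 peaks, beside -0.59 over all matched peaks, and 0.21 after the same division. It was lower for 10 of 16 peaks (72.3% of all) and narrower for 10 of 16 (62.3% of all).

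**Figure D3:**
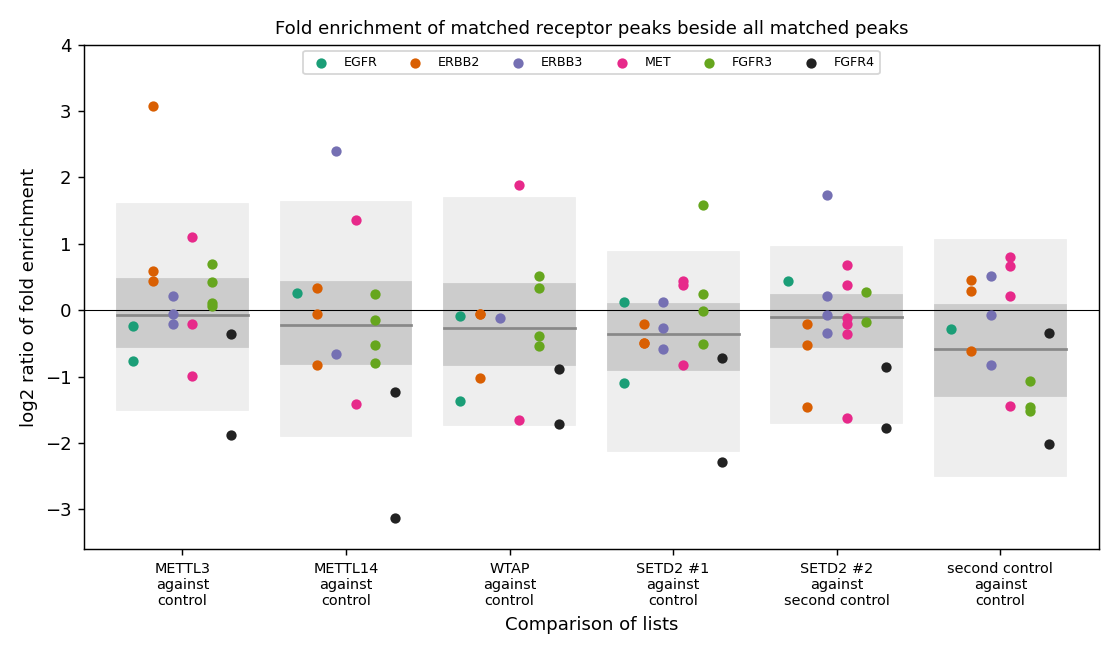
Log2 ratio of fold enrichment of each matched receptor peak (points, coloured by gene) in each comparison of lists, beside all matched peaks (line: median; dark band: middle 50%; light band: 5% to 95%). The black FGFR4 points lie below 0 in every comparison (1 of them, region 2 in the second control, lies above 0 after division by the median of peaks matched 1 to 1), and ERBB2 in METTL3 (3.08) and ERBB3 in METTL14 (2.40) lie highest.

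Peak blocks of the 6 genes together covered 5997 bases in METTL3 and 5305 in METTL14, 5485 in WTAP and 6237 in SETD2 #1, against 7138 in the control, which are changes of -16%, -25.7%, -23.2% and -12.6%. Over all peaks the summed block lengths changed by -14%, -21.3%, -19.6% and -22.7%. SETD2 #2 covered 5076 bases, against 5139 in the second control, a change of -1.23% beside -7.93% over all peaks. The second control differed from the control by -28%, beside -24.3% over all peaks. MET and ERBB3 covered more in the second control than in the control, with ratios of 1.42 and 1.25, while ERBB2 (0.853), FGFR4 (0.697), EGFR (0.441) and FGFR3 (0.308) covered less.

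**Figure D4:**
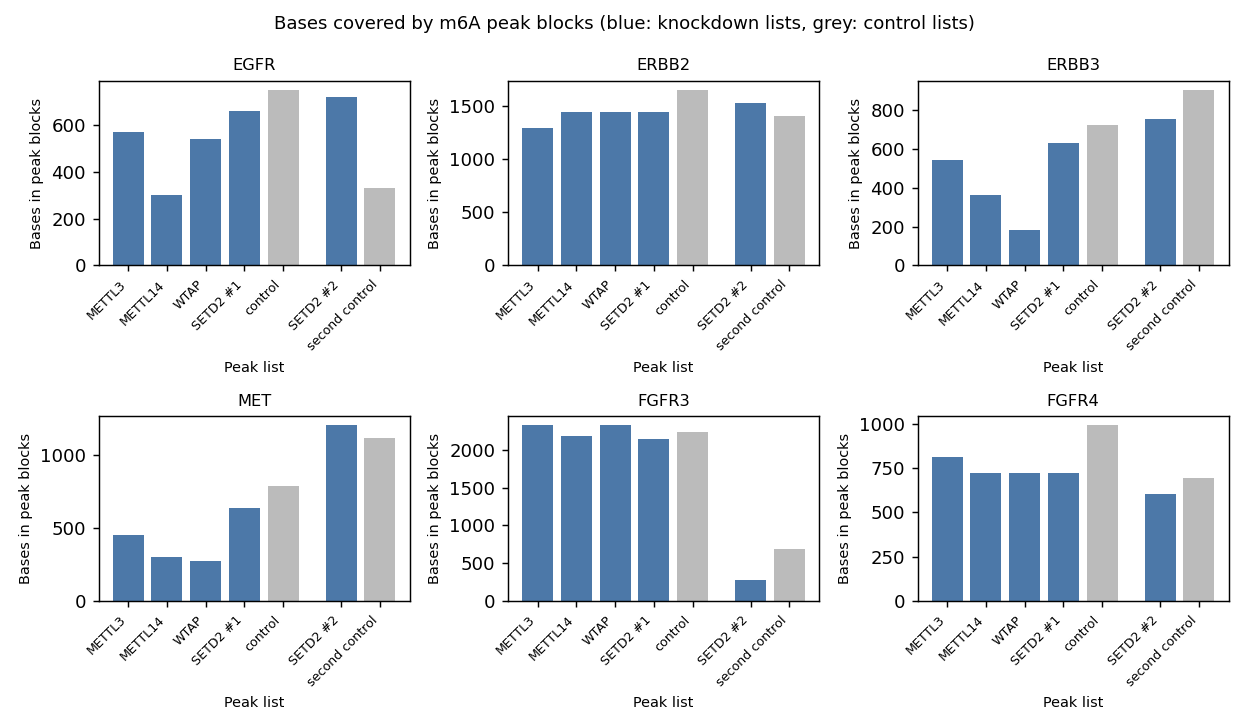
Bases covered by peak blocks of each gene (bars; blue for knockdown lists, grey for control lists), each set with its control at the right. FGFR3 has 270 and 690 bases in the SETD2 #2 and second control lists, and MET is lowest in WTAP (272 bases).

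Likeness between genes was measured on the log2 of a gene's highest fold enrichment, centred on the list's median. The measure was the mean absolute difference over the 7 lists. A gene's own mean was not removed, so it reflects the level of fold enrichment as well as change between lists. Genes that lie near each other need not change alike. Among the 9749 genes with a peak in every list, those nearest to FGFR4 were ENSG00000105281 and ENSG00000272172, both at 0.24, where the median over all genes was 1.44. The nearest of the other 5 receptors to FGFR4 was FGFR3, at 1.03, and the closest pair among the 6 was EGFR and ERBB3, at 0.71.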

How the data were processed

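Per the submitters' processing notes, FastQC 0.11.5 and TopHat2 2.1.1 were used with build hg19. Per the labels, exomePeak was run by the authors over replicates 1 to 3 of a condition at once. Which version and annotation it used is not given in the sources used here. Per the file headers, the deposited columns hold, for IP over input, the p-value, the scores log10 p and log10 FDR, and the fold enrichment, which is a ratio on a linear scale. The largest FDR was 0.05. The authors' shorter lists held the peaks whose p-value was 1e-05 or smaller and whose fold enrichment was 2 or more. Both values describe a whole peak, so peaks of unequal width are compared over unequal bases. Ratios between lists also depend on how each list was made.

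Between 11 and 21 repeated rows per list were dropped, none of them of the 6 genes. A peak was absent from a list when no peak on its strand had 1 or more bases in common with its blocks (bedtools 2.31.1), and was otherwise matched to the peak sharing most bases. Absence depends on depth and transcript level as well as on methylation, and these cannot be told apart. Python 3.11.15 with numpy 2.4.6, pandas 2.3.3, scipy 1.17.1 and matplotlib 3.10.9 did the rest, and the overlap step was tested on simulated data. Intervals and the limit for a count of 0 (3 counts) cover counting error only and treat peaks of the same gene as independent. All 6 genes and all 25 regions are named. Gene lists for pathways and markers could not be matched, as the gene table used here holds 0 Ensembl identifiers. The genes, rules and lists were chosen with earlier results of these data known, and the bounds on log10 p and on fold enrichment used for the background shares were chosen after the values were seen.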

Additional observations from a re-analysis of the deposited data

Results flagged for a closer look

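At 5 regions fold enrichment differed from the control in opposite directions with SETD2 #1 and SETD2 #2, each against its own control. With 1 list per condition these differences were not tested. Over all matched peaks, 70.4% were lower in SETD2 #1 and 57.9% in SETD2 #2. The share of all peaks with opposite directions was not computed. ERBB3 region 1 had a log2 ratio of -0.58 in SETD2 #1 against the control and 1.73 in SETD2 #2 against the second control. The SETD2 #2 ratio rests on a SETD2 #2 peak of 91 bases with a log10 p of -2.89 and a second control peak of 181 bases with -4.67. MET region 1 had 0.44 in SETD2 #1 and -1.62 in SETD2 #2. There the SETD2 #2 peak covered 151 bases with a log10 p of -4.03, and the second control peak 241 bases with -31.6. MET region 2 had -0.83 in SETD2 #1 and 0.38 in SETD2 #2. The ratios at ERBB3 region 3 were 0.13 and -0.35, and those at ERBB3 region 5 were -0.27 and 0.21, for SETD2 #1 and SETD2 #2. Divided by the median of peaks matched 1 to 1, ERBB3 region 5 was higher with both, at 0.07 and 0.33, and the other 4 regions kept opposite signs. So divided, ERBB2 region 4 (0.14 in SETD2 #1 and -0.40 in SETD2 #2) and FGFR3 region 3 (0.33 and -0.06) also took opposite signs. MET region 3 was mixed: its log2 ratio was 0.38 in SETD2 #1, and in SETD2 #2 it was -0.36 against the longer second control peak there and 0.68 against the shorter one.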

How the results depend on the processing

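No paired analysis was possible because the lists pool replicates 1 to 3, which also kept each replicate from being left out in turn. Of 142 values recomputed under the alternatives, 132 stayed within 1.5 times the count or within the interval of the value reported, and 10 moved. These intervals are wide, so a median could change sign without being counted as moved, and the count of 132 is a weak check. With fold enrichment of at least 3, receptor peaks numbered 11 in SETD2 #2 and 11 in the second control, and with the threshold of the shorter lists 11 in SETD2 #2. With fold enrichment of at least 3, the share absent from the control was 0% for the receptor peaks of METTL3, WTAP and SETD2 #1. These were 14, 11 and 13 peaks, and the shares over all peaks were 13.7%, 16.3% and 9.82%. With an FDR of at most 1e-05, 0% of SETD2 #1 receptor peaks were absent from the control (15 peaks). Likewise 0% of those of the control were absent from SETD2 #1 (15 peaks). Over all peaks these shares were 6.17% and 25.3%. Fewer peaks enter under these thresholds, by construction. When a shared peak had to overlap over at least 50% of each of the pair, the second control lacked 45% of the receptor peaks of the control, and the control lacked 47.6% of those of the second control, beside 45.2% and 40.8% over all peaks. Whole spans in place of blocks moved none of the values computed under them. Keeping repeated rows could not move any of its 25 values, because none of those rows belonged to the 6 genes. Dividing ratios by the median of all peaks matched 1 to 1 turned the sign of 3 of the 6 median log2 ratios over receptor peaks, to 0.02 from -0.25 in WTAP, to 0.07 from -0.27 in SETD2 #1 and to 0.21 from -0.32 in the second control. It gave -0.11 in place of -0.34 in METTL14. All 6 stayed within the intervals of the reported medians, which include 0, such as -1.36 to 0.33 in WTAP. Read depth is unknown, so its limit on weak peaks cannot be given.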
